A study of Mus musculus with 21 samples.

Results

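The SLAM family of immune cell receptors and the SAP adaptors were followed in CD4+ and CD8+ T cells of mice that carry an active form of gp130. The 9 genes were chosen by symbol: the receptor genes Slamf1, Slamf6, Slamf7, Cd84, Ly9, Cd48 and Cd244a, and the adaptor genes Sh2d1a and Sh2d2a. They were found by their Ensembl IDs among the 51201 genes of the deposited count tables, and all 9 passed the filter on low counts in both cell types. RNA sequencing of polyadenylated RNA was done on T cells from spleens of C57BL/6J mice of both sexes at postnatal day 35. The L-gp130 mice had the genotype L-gp130fl/+;CD4Cre+/- and the CD4Cre mice, the controls, had CD4Cre+/-, so that Cre under the Cd4 promoter was carried by every group. There were 6 libraries of L-gp130 CD4 cells against 6 of CD4Cre CD4 cells, and 3 libraries of L-gp130 CD8 cells against 6 of CD4Cre CD8 cells. CD4 cells had been bound by magnetic beads against CD4, whereas CD8 cells were left over after depletion of other cells, so cell type and selection method cannot be told apart.

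SLAM receptors are cell surface proteins that mostly bind a second copy of themselves on a neighbouring cell, while CD244 binds CD48. Tyrosine motifs in their tails recruit SAP, a small SH2 domain protein encoded by Sh2d1a, which brings in the kinase Fyn and displaces inhibitory phosphatases. In mice this signalling is known for its part in the contact of T cells with B cells, in follicular helper T cells and in natural killer T cells. Sh2d2a encodes TSAd, another SH2 adaptor of T cells that binds the kinase Lck. It is not a member of the SAP family proper, although it is grouped with Sh2d1a here. The gp130 chain, a subunit common to several cytokine receptors, signals through STAT3, and Cre expressed from the Cd4 promoter is active in thymocytes that give rise to both CD4 and CD8 cells.

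Total counts ran from 17781085 to 21226510 in L-gp130 CD4 libraries and from 27855757 to 35869208 in CD4Cre CD4 libraries, so that depth went with genotype in these cells. In CD8 cells totals were 17217364 to 19476881 (L-gp130) and 17719183 to 19286396 (CD4Cre). The labels number each mouse, and p-values measure the spread between mice. T cell markers were present in every library, and Cd4 averaged 731 CPM (counts scaled by library size and TMM factor) in L-gp130 CD4 cells and 755 CPM in CD4Cre CD4 cells. Markers of other cells were present too, none of the 8 marker lists having a gene at 0 throughout. One library, L-gp130 CD4 replicate 1, stood apart. The summed level of 10 macrophage and dendritic cell markers was 1952 CPM in it, against 464 to 796 CPM in the other L-gp130 CD4 libraries and 628 to 1075 CPM in CD4Cre CD4 libraries. It also had the highest Cd8a of the CD4 libraries, 93.7 CPM, against 15.1 to 29.6 CPM in the other L-gp130 CD4 libraries and 7.75 to 13.9 CPM in CD4Cre CD4 libraries. Sex was uneven between the genotypes in CD4 cells, with 4 of 6 L-gp130 and 1 of 6 CD4Cre libraries labelled male. In CD8 cells 2 of 3 L-gp130 and 4 of 6 CD4Cre libraries were labelled male. A CD4Cre CD4 library, replicate 5, was labelled female and had reads of a male. In these bulk samples, fewer cells of a type and less RNA per cell cannot be told apart.

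All 7 receptor genes lie in a cluster on chromosome 1 (GRCm38, GENCODE release M21), between 171559193, where Cd244a starts, and 171953170, where Slamf6 ends. Sh2d2a lies on chromosome 3 (87846755 to 87855722, plus strand) and Sh2d1a on chromosome X (42502453 to 42529330, plus strand). Libraries were unstranded, so reads of overlapping exons cannot be assigned to a strand. This touches Slamf7, of whose exonic bases 423 (9.24%) overlap the antisense gene Gm37787, and Sh2d1a, of whose exonic bases 1465 (26.6%) in a retained intron transcript overlap Tenm1. Cd244a and Ly9 overlap on opposite strands and share 0 exonic bases.

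Promoter windows of RefSeq (GRCm38.p6, 250 bases before to 50 after the RefSeq start) were matched for 6 of the 9 genes. Those of 4 receptor genes whose levels passed a test between the genotypes are printed here, since gp130 signals through STAT3. Ly9, Sh2d1a and Sh2d2a had no entry. They were searched on both strands for the STAT motif TTCNNNGAA and for the AP-1 motif TGANTCA, both of which read the same on both strands. Capitals mark the AP-1 match. The windows are chr1:171766882-171767181 (plus strand) for Slamf1, chr1:171917212-171917511 (plus strand) for Slamf6, chr1:171648950-171649249 (minus strand) for Slamf7 and chr1:171839447-171839746 (plus strand) for Cd84.
Slamf1 promoter: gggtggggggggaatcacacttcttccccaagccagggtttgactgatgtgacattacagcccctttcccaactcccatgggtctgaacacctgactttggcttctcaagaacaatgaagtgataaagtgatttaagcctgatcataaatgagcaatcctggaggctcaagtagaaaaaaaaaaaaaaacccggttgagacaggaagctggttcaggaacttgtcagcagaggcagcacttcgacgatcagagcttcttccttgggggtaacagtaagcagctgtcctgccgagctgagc
Slamf6 promoter: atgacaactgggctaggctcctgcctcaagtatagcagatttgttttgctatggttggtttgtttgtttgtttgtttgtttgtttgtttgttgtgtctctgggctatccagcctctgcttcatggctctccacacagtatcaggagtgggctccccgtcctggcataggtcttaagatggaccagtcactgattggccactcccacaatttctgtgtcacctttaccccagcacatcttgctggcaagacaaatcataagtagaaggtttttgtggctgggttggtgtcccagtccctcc
Slamf7 promoter: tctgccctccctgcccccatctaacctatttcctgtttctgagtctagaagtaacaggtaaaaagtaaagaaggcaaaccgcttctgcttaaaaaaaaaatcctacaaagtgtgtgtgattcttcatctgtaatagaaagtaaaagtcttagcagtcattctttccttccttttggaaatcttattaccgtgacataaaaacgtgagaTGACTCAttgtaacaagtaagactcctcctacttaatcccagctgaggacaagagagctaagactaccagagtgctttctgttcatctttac
Cd84 promoter: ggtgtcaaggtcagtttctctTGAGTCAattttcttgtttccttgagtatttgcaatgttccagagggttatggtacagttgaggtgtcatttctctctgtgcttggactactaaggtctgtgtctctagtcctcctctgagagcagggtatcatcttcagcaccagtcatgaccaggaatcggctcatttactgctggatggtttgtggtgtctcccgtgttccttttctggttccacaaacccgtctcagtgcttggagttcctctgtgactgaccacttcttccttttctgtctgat
The STAT motif was in 0 of the 6 windows and in 8.30% of the 32851 windows of all genes. The AP-1 motif was in 3 of the 6, in those of Slamf7, Cd84 and Cd244a, and in 7.81% of all windows. It began 42 bases before the start in Slamf7 and 229 bases before it in Cd84. These are matches of letters in these windows, and no binding was measured.

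Levels per transcript length, in TPM (a library's transcript abundances scaled to a common sum, from the authors' Salmon files), fell into an upper and a lower group of genes. In CD4Cre CD4 cells the means ran, high to low, Cd48 132, Slamf6 111, Ly9 103, Sh2d1a 86.9, Sh2d2a 81.2, Cd84 66.2, Slamf7 20.7, Slamf1 13.3 and Cd244a 6.70 TPM. From Cd48 down to Cd84 the libraries of each gene overlapped those of the next, whereas Slamf7, Slamf1 and Cd244a were each below all libraries of the gene above. In L-gp130 CD4 cells the means ran Cd48 152, Slamf6 145, Sh2d1a 118, Sh2d2a 102, Ly9 98.5, Cd84 60.5, Slamf7 21.02, Slamf1 18.8 and Cd244a 6.60 TPM. There Sh2d1a and Sh2d2a stood above Ly9 in mean, with overlapping libraries, and Cd84 lay below all libraries of Ly9.

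In L-gp130 CD8 cells the means ran Cd48 203, Sh2d2a 103, Slamf6 98.3, Sh2d1a 93.7, Ly9 85.8, Cd84 44.1, Slamf7 21.4, Cd244a 7.09 and Slamf1 5.17 TPM. In CD4Cre CD8 cells they ran Cd48 177, Sh2d1a 103, Slamf6 102, Ly9 101, Sh2d2a 80.8, Cd84 60.1, Slamf7 14.6, Cd244a 5.83 and Slamf1 4.36 TPM. Cd48 was above every library of the next gene in both CD8 groups. Slamf1 and Cd244a, the lowest pair, overlapped each other in both.

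Between the cell types of control mice, Slamf1 was higher in CD4 cells, and Cd48, Ly9 and both adaptor genes were lower. Slamf1, the homophilic receptor CD150, had 22.6 ± 1.45 CPM in CD4Cre CD4 cells and 8.62 ± 0.802 CPM in CD4Cre CD8 cells (SD, n = 6 each), a log2 difference of 1.36 ± 0.17 (SE). These CPM come from reads per transcript summed per gene and scaled over all 21 libraries, since the gene tables of the cell types were made separately. The CD4Cre CD4 libraries ran from 20.3 to 24.2 CPM and the CD4Cre CD8 libraries from 7.32 to 9.47 CPM, with no overlap. Of the 9 genes, edgeR called 1 higher and 4 lower in CD4 than in CD8 controls, in a comparison in which it called 51.5% of 15750 genes (24.3% higher and 27.2% lower).

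The 4 lower in CD4Cre CD4 cells were Cd48 (log2 difference -0.53), Sh2d2a (-0.40), Ly9 (-0.33) and Sh2d1a (-0.30), with edgeR adjusted p of 0.000763, 3.46e-05, 0.000409 and 0.000928. Cd48, the membrane-anchored ligand of CD244, had 84.2 ± 4.01 CPM in CD4Cre CD4 cells and 122 ± 10.8 CPM in CD4Cre CD8 cells. Slamf6 had a difference of -0.24 that missed the threshold (edgeR adjusted p = 0.0523), and passed it in 8 of 21 fits that left out a library and with the gene tables joined (-0.36, adjusted p = 0.00447). Slamf7 had a difference of 0.44 (edgeR adjusted p = 0.160), or 0.35 without L-gp130 CD4 replicate 1, whose spread enters the same fit (adjusted p = 0.0120). Cd84 and Cd244a were at 0.03 (95% interval -0.08 to 0.14) and -0.01 (-0.42 to 0.41). Markers of other cells differed between the controls too. B cell marker sums had medians of 618 CPM in CD4Cre CD4 and 67.3 CPM in CD4Cre CD8 cells. Macrophage and dendritic cell sums had 932 and 457 CPM in that order, and erythroid sums 6299 and 93.1 CPM. Natural killer cell sums (39.9 and 214 CPM) were higher in CD8 controls. Platelet sums (18.6 and 21.4 CPM) overlapped, with ranges of 11.2 to 25.6 CPM in CD4Cre CD4 and 9.48 to 27.2 CPM in CD4Cre CD8 cells. Each sum was scaled within its cell type, and the part of these cells was not tested.

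In CD4 cells of L-gp130 mice, 2 receptor genes and both adaptor genes rose: Slamf6 1.52-fold, Slamf1 1.46-fold, Sh2d1a 1.51-fold and Sh2d2a 1.34-fold. EdgeR called these 4 of the 9 genes, all higher, beside 18.9% of the 15016 genes tested (11.1% higher and 7.75% lower). The median log2 fold change was 0.25 over the 9 and -0.01 over all genes tested. In 3 of the 9 genes (Slamf1, Sh2d1a and Sh2d2a) every L-gp130 CD4 library was above every CD4Cre CD4 library, as in 7.68% of all genes, while 5.85% did not overlap in the lower direction. The same 4 genes were called without both L-gp130 replicate 1 and CD4Cre replicate 5.

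**Figure D1:**
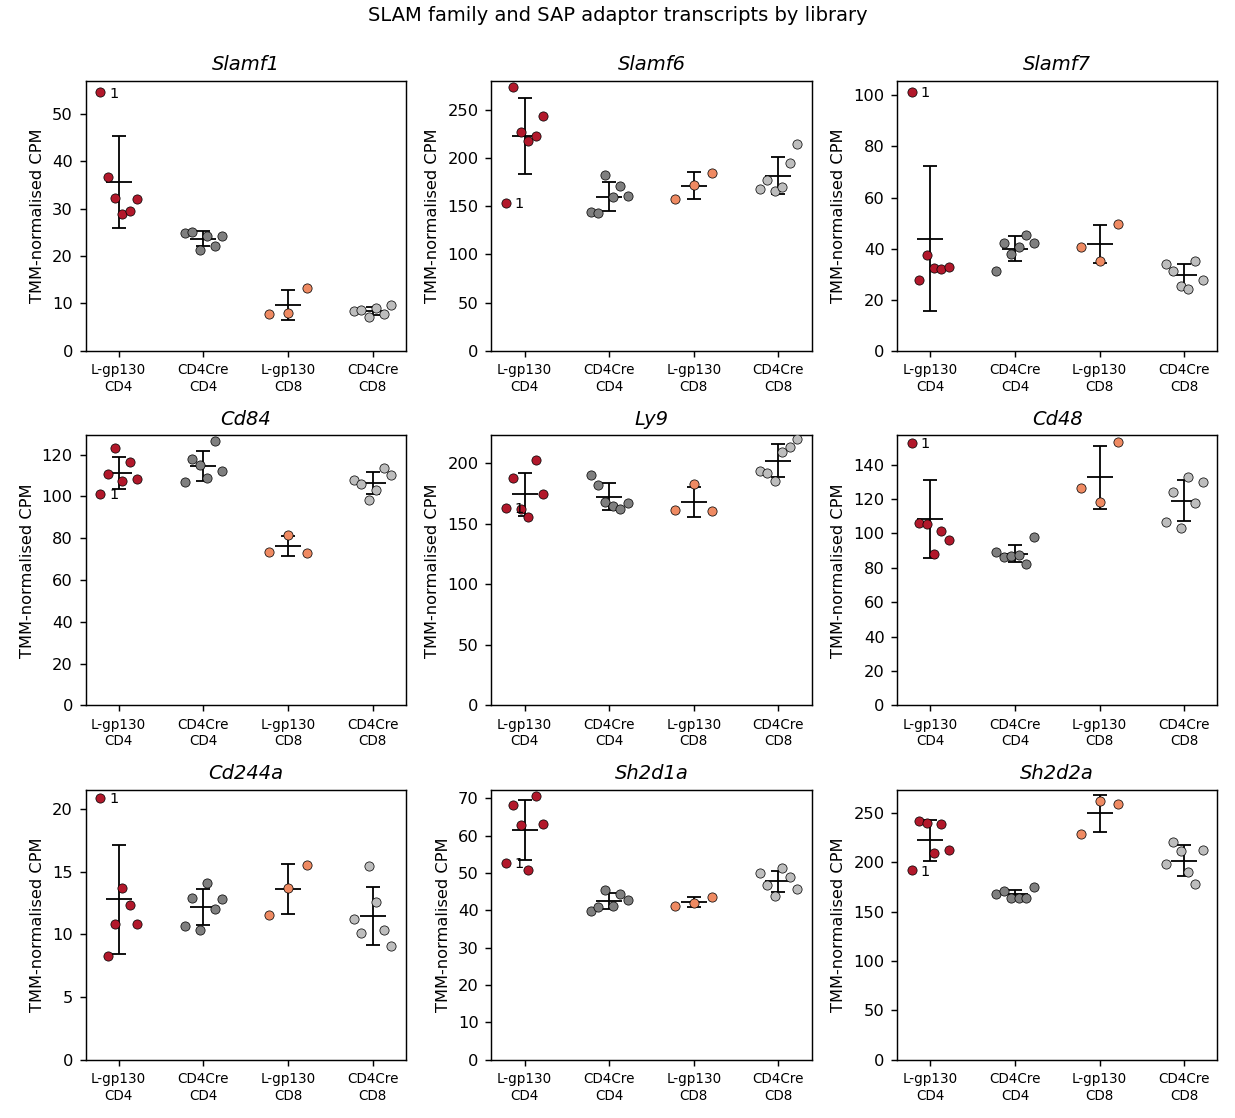
TMM-normalised CPM (vertical axes, from 0) of the 9 genes in each library, with L-gp130 left of CD4Cre in CD4 and then in CD8 cells; points are libraries, bars the mean ± SD, and 1 marks L-gp130 CD4 replicate 1. Values are scaled within each cell type's table. Slamf1, Sh2d1a and Sh2d2a points of L-gp130 CD4 cells all lie above those of CD4Cre CD4 cells, and Cd84 points of L-gp130 CD8 cells all lie below those of CD4Cre CD8 cells.

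Slamf6, the homophilic receptor Ly108 of T, B and natural killer cells, rose in CD4 cells although 1 library did not follow. Its lowest, median and highest values were 154, 225 and 273 CPM in L-gp130 CD4 libraries, against 143, 159.6 and 183 CPM in CD4Cre CD4 libraries. All L-gp130 CD4 libraries but replicate 1, the lowest, were above every CD4Cre CD4 library. Its log2 fold change was 0.61 ± 0.11 (SE; edgeR adjusted p = 0.00246), and 0.65 without replicate 1 (adjusted p = 3.64e-05).

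Slamf1 had 28.8, 32.2 and 54.5 CPM as lowest, median and highest in L-gp130 CD4 libraries, against 21.3, 24.3 and 25.2 CPM in CD4Cre CD4 libraries. The groups did not overlap, and the highest value was again that of replicate 1. A log2 fold change of 0.55 ± 0.16 passed narrowly (edgeR adjusted p = 0.0341). Without replicate 1 it was 0.45 with a smaller adjusted p, 0.00247. It was lost in 7 of the 12 fits that each dropped a library, those without L-gp130 replicate 2 or 6 or CD4Cre replicate 1, 3, 4, 5 or 6 (adjusted p 0.0574 to 0.115).

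Sh2d1a, the gene of SAP, had 50.8, 62.9 and 70.7 CPM as lowest, median and highest in L-gp130 CD4 libraries, against 39.9, 41.9 and 45.6 CPM in CD4Cre CD4 libraries. No library of either group reached the other's range. On the log2 scale Sh2d1a was 0.60 ± 0.09 higher (edgeR adjusted p = 0.000832). It stayed called in all 12 fits that left out a library and in 13 other settings, among them those without the sex covariate or with the sex read from the data, which bear on a gene of the X chromosome.

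Sh2d2a, the gene of TSAd, had 192, 226 and 242 CPM as lowest, median and highest in L-gp130 CD4 libraries, against 163, 166 and 175 CPM in CD4Cre CD4 libraries. The groups did not overlap, with CD4Cre CD4 libraries close together (SD 4.58 CPM) and L-gp130 CD4 libraries more spread (SD 20.7 CPM). The log2 fold change was 0.42 ± 0.07 (edgeR adjusted p = 0.00193).

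The other receptor genes did not pass the test in CD4 cells. Cd84, a homophilic receptor of T and B cells, and Ly9, a homophilic receptor of T and B cells also called CD229, had intervals close around 0. Their log2 fold changes were -0.03 (95% interval -0.18 to 0.13) for Cd84 and 0.01 (-0.17 to 0.19) for Ly9. Cd84 averaged 111 ± 7.71 CPM in L-gp130 CD4 cells and 115 ± 7.07 CPM in CD4Cre CD4 cells, and Ly9 averaged 174 ± 18.0 and 172 ± 11.2 CPM in the same order (SD, n = 6 each). Cd48 had 87.7, 104 and 153 CPM as lowest, median and highest in L-gp130 CD4 libraries, against 82.3, 87.1 and 97.6 CPM in CD4Cre CD4 libraries. Its log2 fold change was 0.25 (edgeR adjusted p = 0.205), and 0.18 without replicate 1 (adjusted p = 0.0817).

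Slamf7, a receptor of natural killer, plasma and activated T cells that signals through another adaptor, EAT-2, turned on 1 library in CD4 cells. L-gp130 CD4 replicate 1 had 101 CPM, against 27.7 to 37.3 CPM in the other L-gp130 CD4 libraries and 31.2 to 45.4 CPM in CD4Cre CD4 libraries. The log2 fold change of -0.07 therefore had a wide interval, -0.91 to 0.77, and was -0.27 without that library (edgeR adjusted p = 0.116). Among libraries labelled female, 2 of L-gp130 and 5 of CD4Cre mice, it was -0.47 (adjusted p = 0.0123). Cd244a, a receptor of natural killer and cytotoxic T cells, had 20.9 CPM in replicate 1 and 8.28 to 13.7 CPM in the other L-gp130 CD4 libraries, against 10.3 to 14.1 CPM in CD4Cre CD4 libraries (log2 fold change -0.10, edgeR adjusted p = 0.791).

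Transcripts of other cells differed between the genotypes in the same CD4 libraries. Of the 10 macrophage and dendritic cell markers 1 was called, Siglech, which fell (5.07 ± 2.63 CPM in L-gp130 CD4 cells and 30.4 ± 9.95 CPM in CD4Cre CD4 cells). Of the 8 T cell markers Cd247 fell (log2 fold change -0.35 ± 0.11). The summed level of 8 B cell markers ran from 244 to 630.5 CPM in L-gp130 CD4 cells and from 263 to 966 CPM in CD4Cre CD4 cells. Of those B cell markers 3 fell by edgeR's test. The sum of 6 plasma cell markers ran from 170 to 274 CPM in L-gp130 CD4 cells and from 98.9 to 145 CPM in CD4Cre CD4 cells, and 3 of the 5 tested rose. The sum of 4 erythroid markers ran from 4254 to 23107 CPM in L-gp130 CD4 cells and from 2821 to 15783 CPM in CD4Cre CD4 cells. B cells, plasma cells, myeloid cells and CD8 cells also carry SLAM receptors, and the part of these cells in the results was not tested.

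**Figure D2:**
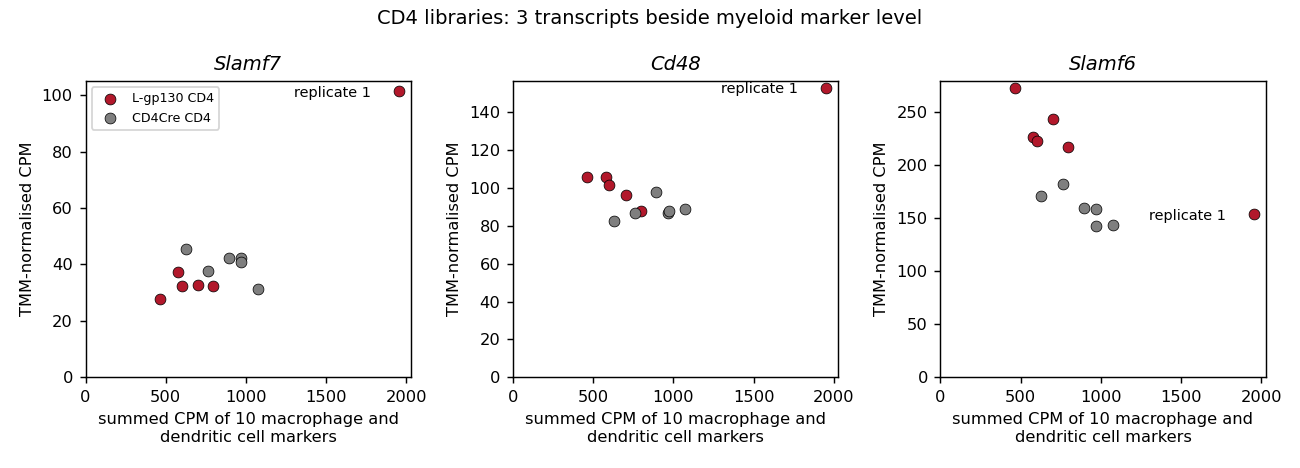
Slamf7, Cd48 and Slamf6 (vertical axes, TMM-normalised CPM from 0) against the summed CPM of 10 macrophage and dendritic cell markers (horizontal axes) in the 12 CD4 libraries, L-gp130 in red and CD4Cre in grey. L-gp130 replicate 1, at a marker sum of 1952 CPM, has the highest Slamf7 (101 CPM) and Cd48 (153 CPM) and the lowest Slamf6 of its group (154 CPM).

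In CD8 cells of L-gp130 mice the pattern was split. Cd84 fell to 0.715 times and Ly9 to 0.831 times the level of CD4Cre cells, while Slamf7 rose 1.42-fold and Sh2d2a 1.24-fold. EdgeR called these 4 of the 9 genes, 2 higher and 2 lower, beside 21% of the 14254 genes tested (10.5% higher and 10.5% lower). Groups did not overlap in 2 of the 9 genes in the higher direction, as in 11.7% of all genes, and in 3 of the 9 in the lower direction (Cd84, Ly9 and Sh2d1a), as in 12.4% of all genes. The median log2 fold change was 0.15 over the 9 and -0.01 over all genes tested.

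Cd84 had 73.5, 81.6 and 73.1 CPM in the L-gp130 CD8 libraries, against 98.2, 107 and 114 CPM as lowest, median and highest in CD4Cre CD8 libraries. All 3 L-gp130 CD8 libraries lay well below every control. Its log2 fold change was -0.48 ± 0.07 (SE; edgeR adjusted p = 0.00121), and it stayed called in all 9 fits that left out a library.

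Ly9 had 161, 183 and 160.2 CPM in the L-gp130 CD8 libraries, against 186, 201 and 219.6 CPM as lowest, median and highest in CD4Cre CD8 libraries. L-gp130 replicate 2 came within a few CPM of the lowest control. A log2 fold change of -0.27 ± 0.08 passed narrowly (edgeR adjusted p = 0.0340) and was lost in 5 of the 9 fits that each dropped a library, those without L-gp130 replicate 1 or 3 or CD4Cre replicate 4, 5 or 6 (adjusted p 0.0562 to 0.165).

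Slamf7 had 40.7, 35.3 and 49.8 CPM in the L-gp130 CD8 libraries, against 24.01, 29.6 and 35.1 CPM as lowest, median and highest in CD4Cre CD8 libraries. The lowest L-gp130 value was just above the highest control. On the log2 scale Slamf7 was 0.50 ± 0.15 higher (edgeR adjusted p = 0.0347). It was 0.29 without L-gp130 replicate 3, and it was lost there and without L-gp130 replicate 1 or CD4Cre replicate 3, 4 or 6 (adjusted p 0.0507 to 0.257).

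Sh2d2a had 228, 262 and 259 CPM in the L-gp130 CD8 libraries, against 178, 205 and 220.1 CPM as lowest, median and highest in CD4Cre CD8 libraries, with no overlap. The log2 fold change was 0.31 ± 0.08 (edgeR adjusted p = 0.0172), and it was lost when L-gp130 replicate 2 or 3 was dropped (adjusted p 0.0724 to 0.0992). It was the member called higher in both cell types. Sh2d1a had 41.1, 41.9 and 43.6 CPM in the L-gp130 CD8 libraries, against 43.8, 47.8 and 51.3 CPM as lowest, median and highest in CD4Cre CD8 libraries. The groups just failed to meet, and the log2 fold change of -0.18 did not pass (95% interval -0.34 to -0.01; edgeR adjusted p = 0.115).

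The remaining receptor genes did not pass in CD8 cells. Slamf6 averaged 171 ± 13.9 CPM in L-gp130 CD8 cells (SD, n = 3) and 182 ± 19.1 CPM in CD4Cre CD8 cells (SD, n = 6), a log2 fold change of -0.09 (95% interval -0.28 to 0.11). Slamf1 had 7.78, 8.05 and 13.3 CPM in the L-gp130 CD8 libraries, against 7.20 to 9.59 CPM in CD4Cre CD8 libraries, and only replicate 3 was above the controls. Its log2 fold change was 0.17 (-0.22 to 0.57). Cd48 was at 0.15 (-0.08 to 0.38) and Cd244a at 0.24 (-0.13 to 0.61).

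Markers of the T cells themselves and of other cells moved in the same CD8 libraries. Of 8 T cell markers 5 fell, Cd8a among them (844 ± 65.7 CPM in L-gp130 CD8 cells and 1083 ± 87.9 CPM in CD4Cre CD8 cells), and none was called higher. The log2 fold changes of those that fell were -0.28 (Cd3d), -0.38 (Cd3g), -0.60 (Cd247), -0.36 (Cd8a) and -0.67 (Cd8b1). The sum of 6 plasma cell markers was 247, 129 and 409 CPM in L-gp130 CD8 replicates 1, 2 and 3, against 58.7 to 135 CPM in CD4Cre CD8 libraries. Of these 6 markers only Xbp1 was called, and it rose (log2 fold change 0.70 ± 0.12). The same library was highest, and the same lowest, as for Slamf7 among the L-gp130 CD8 libraries, an order of only 3 values that was not tested. Of 5 natural killer cell markers 2 fell, Ncr1 (9.12 ± 1.65 CPM in L-gp130 CD8 cells and 20.3 ± 3.42 CPM in CD4Cre CD8 cells) and Klre1, while Eomes was at 0.38 and did not pass. Their sum ran from 174 to 291 CPM in L-gp130 CD8 cells and from 189 to 233 CPM in CD4Cre CD8 cells. Of the 10 macrophage and dendritic cell markers Itgax rose, while C1qa and C1qb fell, and their sum ran from 358 to 501 CPM in L-gp130 CD8 cells and from 346 to 721 CPM in CD4Cre CD8 cells. Their part in the member results was not tested.

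The CD4Cre CD8 libraries also fell apart on the second principal component, replicates 1 to 3 lying at -30.8 to -24.2 and replicates 4 to 6 at 2.32 to 38.8, and the labels name no batch. On the first component, which separates the genotypes, the same sets lay apart too, at 10.7 to 15.3 and at 32.1 to 44.2. The L-gp130 CD8 libraries were at -57.4 to -40.8 there. Against either set alone Cd84 was lower (log2 fold change -0.45 against replicates 1 to 3 and -0.52 against replicates 4 to 6), and Sh2d2a was higher (0.25 and 0.37 in the same order). All 4 of these values passed edgeR's test. Ly9 passed against replicates 4 to 6 (-0.35) and not against replicates 1 to 3 (-0.18, adjusted p = 0.105). Slamf7 was at 0.47 and 0.52, with adjusted p of 0.0795 and 0.0545.

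**Figure D3:**
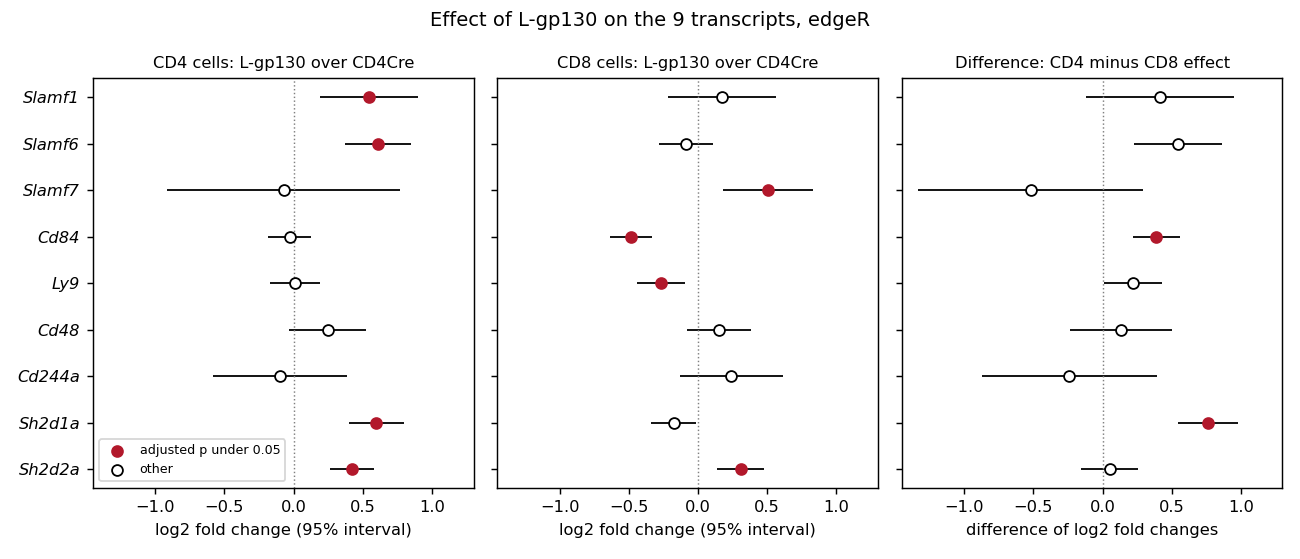
Log2 fold changes of L-gp130 over CD4Cre (horizontal axes, 95% intervals from edgeR) for the 9 genes in CD4 cells (left), in CD8 cells (middle), and the difference of the CD4 and CD8 effects (right); filled points have an adjusted p under 0.05. Sh2d1a is at 0.60 in CD4 cells and -0.18 in CD8 cells, and Cd84 at -0.03 and -0.48.

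The effect of L-gp130 differed between CD4 and CD8 cells for Sh2d1a and Cd84, by the test of the difference itself. On reads summed per gene over all 21 libraries, the CD4 effect minus the CD8 effect was 0.76 ± 0.10 on the log2 scale for Sh2d1a (edgeR adjusted p = 0.000203). For Cd84 it was 0.39 ± 0.08 (adjusted p = 0.00863, or 0.0673 without L-gp130 CD8 replicate 1). EdgeR called these 2 of the 9 genes, both above 0, beside 3.45% of 15750 genes (1.83% above 0 and 1.63% below). Their directions were not alike: SAP transcripts were higher in L-gp130 CD4 cells with a CD8 value below 0, and Cd84 transcripts were lower in L-gp130 CD8 cells with a CD4 value near 0.

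Slamf6 had a difference of 0.54 ± 0.15 that missed the threshold (edgeR adjusted p = 0.0535). It passed without L-gp130 CD4 replicate 1 (0.60, adjusted p = 0.00380), without CD4Cre CD4 replicate 3 (0.0484), with DESeq2 (0.0180) and with the gene tables joined (0.0237). Slamf7 had -0.52 ± 0.39 (adjusted p = 0.530), or -0.79 without L-gp130 CD4 replicate 1 (adjusted p = 0.00768). The differences of Slamf1 (0.42) and Ly9 (0.22) did not pass, nor did those of Cd48, Cd244a and Sh2d2a. For Sh2d2a the 95% interval was -0.15 to 0.26.

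The transcript make-up of the genes was compared as the share of each gene's TPM held by its main transcript, with an exact permutation test per gene and cell type (2-sided). Of 18 tests 1 passed after adjustment, that of Sh2d2a in CD4 cells. Sh2d2a-201, which codes for 366 amino acids, held 48.5 ± 2.12% in L-gp130 CD4 cells and 53.0 ± 1.73% in CD4Cre CD4 cells (SD, n = 6 each). The 6 shares ran from 44.5% to 50.8% in L-gp130 CD4 libraries and from 51.1% to 55.9% in CD4Cre CD4 libraries, with no overlap. The exact permutation p was 0.00216, the smallest this design can give, and 0.0390 after adjustment. With shares of reads in place of TPM the difference was -3.42 points, against -4.57 points with TPM, and did not pass (exact permutation test, adjusted p = 0.0779).

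The share was taken up by Sh2d2a-202, a transcript of 374 codons that has 6 of the 7 coding segments of Sh2d2a-201. It held 43.8 ± 2.70% in L-gp130 CD4 cells and 38.9 ± 2.11% in CD4Cre CD4 cells. In CD8 cells Sh2d2a-201 held 45.4 ± 4.66% (L-gp130, n = 3) and 45.6 ± 6.17% (CD4Cre, n = 6; exact permutation p = 0.976). There CD4Cre replicates 1 to 3 had 39.7% to 40.7% and replicates 4 to 6 had 48.2% to 54.4%, the same division as on the principal components. A retained intron transcript, Sh2d2a-203, held 18.1% in L-gp130 CD8 cells and 16.6% in CD4Cre CD8 cells, and 7.78% in L-gp130 CD4 cells and 8.06% in CD4Cre CD4 cells.

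Slamf6 was divided among 3 coding transcripts in each group. In L-gp130 CD4 cells Slamf6-201 held 43.4%, Slamf6-204 33.0% and Slamf6-207 17.0%, and in CD4Cre CD4 cells they held 45.2%, 30.4% and 16.0%. Sh2d1a, Slamf1 and Cd48 each had 1 main transcript, with a mean of over 90% of the TPM in each group. Ly9-204, a transcript marked for nonsense-mediated decay, was singled out after its values were seen and is given without a test. It held 0.82% to 3.07% of Ly9 in L-gp130 CD4 libraries and 3.32% to 7.34% in CD4Cre CD4 libraries, and 1.78% to 5.32% in L-gp130 CD8 libraries and 5.33% to 11.9% in CD4Cre CD8 libraries. How many other transcripts separate the groups likewise is not given. The Ly9 transcript that was tested, Ly9-202, did not pass in CD4 or CD8 cells (exact permutation test, adjusted p = 0.670 and 0.536).

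**Figure D4:**
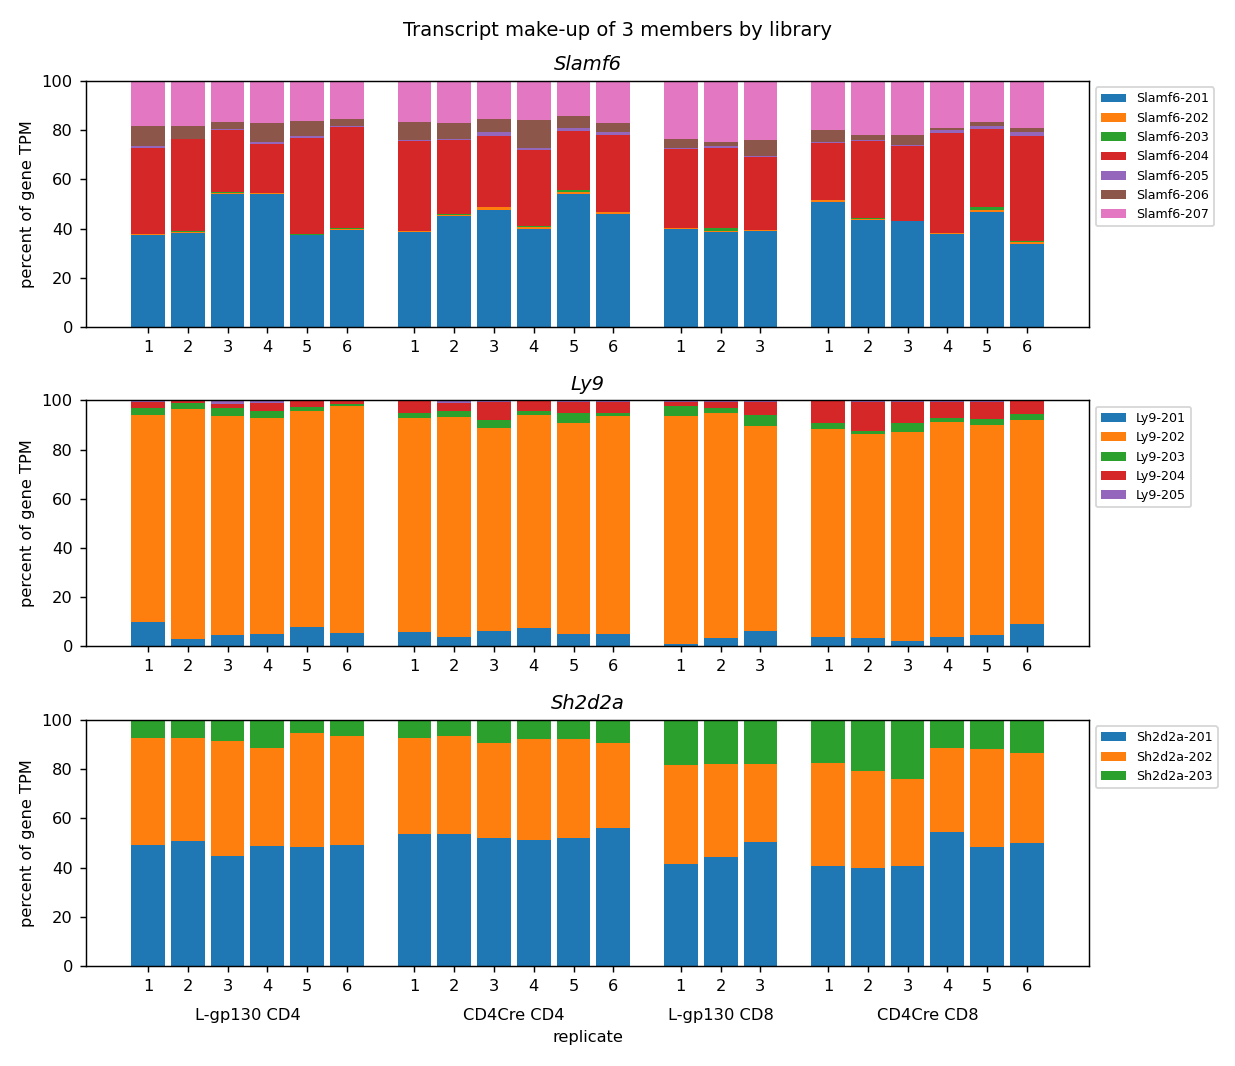
Share of each gene's TPM (vertical axes, percent) held by its annotated transcripts of Slamf6, Ly9 and Sh2d2a in each of the 21 libraries, with L-gp130 left of CD4Cre in each cell type. The Sh2d2a-201 segment is at 44.5% to 50.8% in L-gp130 CD4 libraries and at 51.1% to 55.9% in CD4Cre CD4 libraries. Within each cell type the Ly9-204 segment, singled out after its values were seen and not tested, is smaller in L-gp130 than in CD4Cre libraries.

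Of 20 other genes of the pathway (related receptors, EAT-2 adaptors, kinases, phosphatases and downstream proteins), all tested in CD4 cells, 3 rose there and 17 did not pass the test, beside the 11.1% called higher and 18.9% called in either direction among all genes. Fyn, the kinase that SAP recruits, rose (log2 fold change 0.40 ± 0.08, SE), with 488 ± 45.1 CPM in L-gp130 CD4 cells and 377 ± 16.9 CPM in CD4Cre CD4 cells. Ptpn11, the phosphatase SHP-2 that competes with SAP for the receptor tails, rose too (0.75 ± 0.09; 233 ± 37.3 and 149 ± 8.96 CPM in the same order). Dok1, a docking protein downstream of tyrosine kinases, rose (0.44 ± 0.11), which no longer passed when L-gp130 replicate 6 or CD4Cre replicate 1 was dropped (edgeR adjusted p 0.0903 to 0.0952). The list's median was 0.08, and without L-gp130 replicate 1 edgeR called 6 of its genes.

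In CD8 cells 18 of the 20 were tested, 1 fell and 17 did not pass, with a list median of -0.08, beside 21% called among all genes. The gene that fell was Cd2, a second receptor of CD48 (log2 fold change -0.62 ± 0.07), with 178 ± 11.7 CPM in L-gp130 CD8 cells (n = 3) and 274 ± 13.8 CPM in CD4Cre CD8 cells (n = 6). Without CD4Cre replicate 6, edgeR called 2 genes of the list. Fyn was at 0.03 and Ptpn11 at -0.11 in CD8 cells, and neither passed. The difference between the cell types did pass for Ptpn11 (0.79), Fyn (0.41), Cd2 (0.49) and Bcl10 (0.38), 4 of 19 tested (edgeR adjusted p 0.000556 to 0.0134). Among all genes 3.45% passed this test (1.83% above 0). The call was lost for Fyn and Bcl10 without L-gp130 CD8 replicate 1, and for Bcl10 also without L-gp130 CD8 replicate 2 (adjusted p 0.0728 to 0.0890). Of 9 other settings, Bcl10 kept its call in 7 and Fyn in 8.

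Of 7 genes of cells whose formation needs SAP in mice, follicular helper and natural killer T cells, 6 rose in each cell type. Among all genes tested, 11.1% were called higher in CD4 cells and 10.5% in CD8 cells. The list was chosen with earlier results of these data known. Its median log2 fold change was 1.25 in CD4 cells and 1.73 in CD8 cells, against -0.01 over all genes tested in each. In CD4 cells Bcl6, the factor of follicular helper cells, rose by 0.93 ± 0.12, and their chemokine receptor Cxcr5 by 1.25 ± 0.18. Cxcr5 had 123 ± 34.5 CPM in L-gp130 CD4 cells and 55.8 ± 4.48 CPM in CD4Cre CD4 cells. Icos (1.45 ± 0.10), Pdcd1 (2.19 ± 0.11) and the cytokine genes Il21 (3.74 ± 0.32) and Il4 (1.17 ± 0.33) rose too. Il4 no longer passed when L-gp130 replicate 6 was dropped (edgeR adjusted p = 0.0540) or CD4Cre replicate 1 was (0.160), where its value was 0.72. It did not pass either at equal depth (1.04, adjusted p = 0.0619) or in libraries labelled female (0.71, adjusted p = 0.124). Zbtb16, the factor of natural killer T cells, was at 0.75 and did not pass (adjusted p = 0.332).

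In CD8 cells the exception was Cxcr5, at 21.9 ± 9.08 CPM in L-gp130 cells (n = 3) and 21.3 ± 3.62 CPM in CD4Cre cells (n = 6). Zbtb16 rose by 1.73 ± 0.27, with 24.6 ± 9.11 and 7.37 ± 1.97 CPM in the same order. Bcl6 rose by 0.72 ± 0.12, Icos by 0.92 ± 0.08 and Pdcd1 by 3.09 ± 0.15. Il4 rose by 1.83 ± 0.38, a call lost without L-gp130 replicate 3 (edgeR adjusted p = 0.0573). Il21 was near the floor of these libraries, with 82.8 counts in all in L-gp130 CD8 cells and 5.05 in CD4Cre CD8 cells, and it too was called. The CD4 effect minus the CD8 effect passed above 0 for 2 of the 7 genes and below 0 for 1. Among all genes 1.83% passed above 0 and 1.63% below. Pdcd1 was at -1.05, with the larger rise in CD8 cells (edgeR adjusted p = 0.00847). Cxcr5 was at 1.02 (adjusted p = 0.0307) and Icos at 0.44 (0.0492). Of 9 other settings, Pdcd1 kept its call in 9, Cxcr5 in 5 and Icos in 2.

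**Figure D5:**
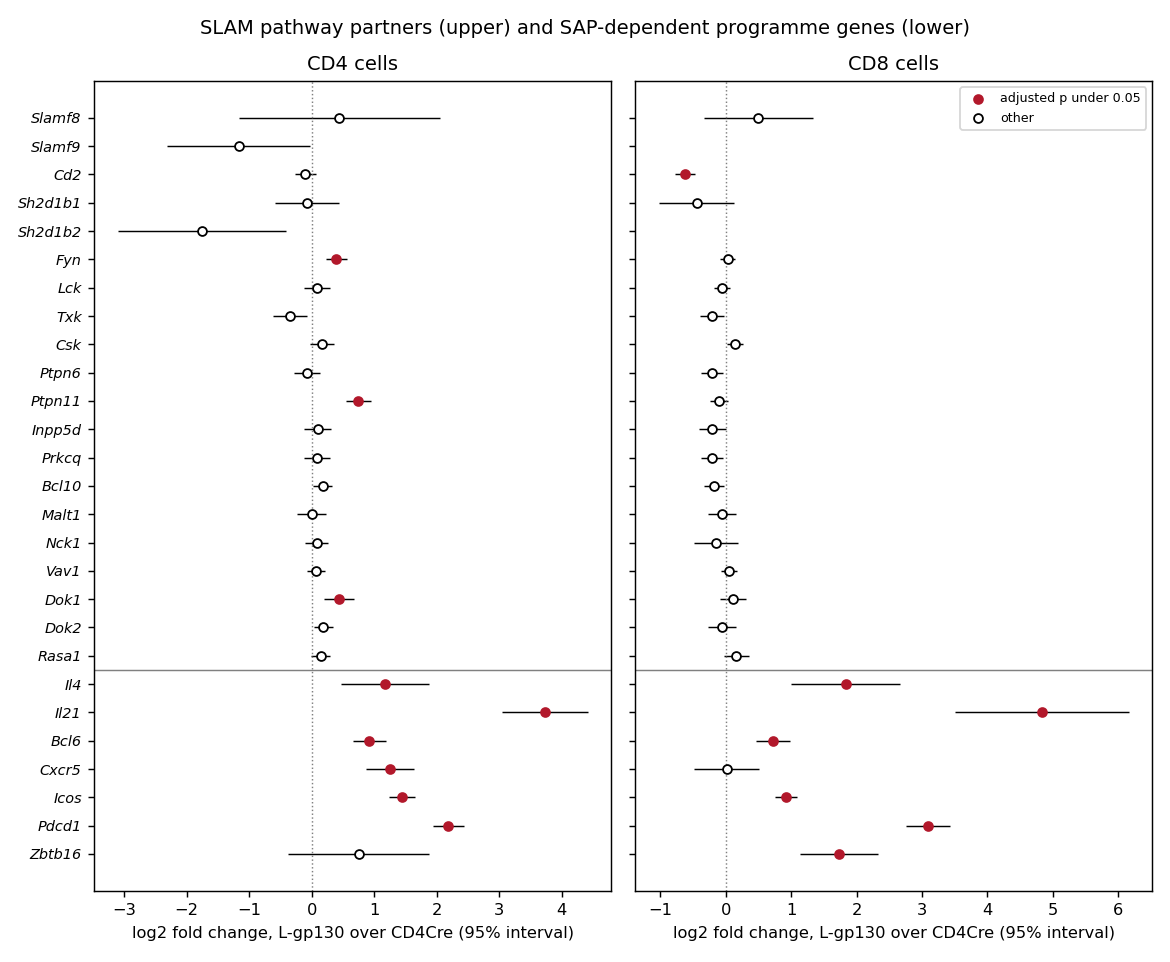
Log2 fold changes of L-gp130 over CD4Cre (horizontal axes, with 95% intervals from edgeR) of 20 pathway genes (above the grey line) and 7 genes of SAP-dependent T cells (below it) in CD4 cells (left) and CD8 cells (right); filled points have an adjusted p under 0.05, and genes with no point were not tested. Ptpn11 and Fyn are filled and right of 0 in CD4 cells, Cd2 is filled and left of 0 in CD8 cells, and 6 of the 7 lower genes are filled in each panel.

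The genes whose levels followed each member most closely over the 21 libraries were found by Pearson's r of log2 CPM among 11653 genes, as a description in which cell type and genotype are shared by all points. Sh2d1a was closest to Fyn (0.92), the kinase it works with, and to Tspan5 (0.91). Cd48 was closest to Rap2a (0.95) and to Icam1 (0.95), an adhesion molecule, and Ly9 to Cd3d (0.95), a chain of the T cell receptor complex, and Cdkn2aipnl (0.94). Slamf6 was closest to Dennd2d (0.89) and Tnfsf8 (0.89), and Cd84 to Crbn (0.91) and Lbh (0.89). Slamf1 was closest to Wdfy2 and Arhgap22 (0.97 each), and Sh2d2a to Nefh and Tsen54 (0.95 each). The nearest genes of Slamf7 were Bst1 (0.87) and Plin2 (0.82), and those of Cd244a were Rbpms and Lilra6 (0.84 each). All r values include L-gp130 CD4 replicate 1, in which Slamf7, Cd244a, Slamf1 and Cd48 were highest among CD4 libraries.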

How the data were processed

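What the authors deposited were estimated counts of genes, one table to a cell type, and for each library Salmon's estimated counts and TPM per transcript, per the file headers. Tools named in the submitters' processing notes, without a role, were Salmon 1.5.2, cutadapt 3.4, edgeR 3.34.1 and Trimmomatic 0.39, and the build was GRCm38. Per the labels' protocols, RNA had an integrity number above 7 and was sequenced as unstranded 150 bp paired reads.

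Gene names came from GENCODE M21 (51115 of 51201 IDs with a symbol). The test was that of edgeR 4.0.16 (R 4.3.3) on the estimated counts, rounded, using filterByExpr, TMM and the robust quasi-likelihood test (2-sided), in a fit per cell type with sex as labelled as a covariate. P-values were adjusted by Benjamini-Hochberg over all genes tested, and an adjusted p under 0.05 was called. The difference between cell types, and CD4Cre CD4 against CD4Cre CD8, came from a fit of all 21 libraries on reads per transcript summed per gene, of which 0.170% to 0.243% matched no gene. Fold changes are L-gp130 over CD4Cre, and CPM are edgeR's after TMM.

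Shares of TPM per transcript were tested by an exact permutation over libraries (SciPy 1.17.1), where every library had at least 50 reads of the gene. The steps were tested on simulated data in a limited way. Counts were drawn from the fitted means and dispersions, with no outlying library added. The permutation was run only with equal groups, and not with the group sizes of the CD8 cells. Within groups, no library looked like a copy of another (lowest chi-square per gene 6.34 over 48 pairs). Estimated counts carry the error of read assignment among transcripts as well as counting error.

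The members, lists, tests and alternatives were chosen with earlier results of these data known, and some genes of the pathway list are not reported here. All 9 members are named, as are the called genes of the pathway lists and, for likeness, the 2 nearest genes of each member, leaving out gene models, receptor segments and sex genes. Among the alternatives were DESeq2 1.42.0, limma-voom (limma 3.58.1) and RLE scaling, other filters, no sex covariate, the sex read from the data, reads per transcript, equal depth, a stricter threshold, a replicate block, single libraries left out and subsets of libraries.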

Additional observations from a re-analysis of the deposited data

Results flagged for a closer look

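In L-gp130 CD4 cells, replicate 1 lay far from the other 5 libraries for 3 of the members, in 27 groups of values checked, of which chance alone sets apart about 1 in 20. Slamf1 was at 54.5 CPM there (others 28.8 to 36.6), Slamf7 at 101 CPM (others 27.7 to 37.3) and Cd48 at 153 CPM (others 87.7 to 106). The same library had the highest macrophage and dendritic cell marker sum of all CD4 libraries, and the part of such cells in these values was not tested.

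The effect of L-gp130 differed between CD4 and CD8 cells by the test of the difference for Sh2d1a (0.76 on the log2 scale, CD4 minus CD8) and for Cd84 (0.39).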

How the results depend on the processing

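Of 1960 single values recomputed under an alternative, 1850 kept their side of the threshold, 94 lost a call and 16 gained one. No called value changed sign, but 49 values that were not called did, among them Slamf7 in CD4 cells, which ran from -0.47 to 0.22. Of 224 counts of called genes, 193 stayed within 1.5 times. The count of members called in CD4 cells was 3 to 5 in all alternatives. In CD8 cells it was 4, but 1 at an adjusted p under 0.01, 2 with CD4Cre replicates 1 to 3 alone, 2 with the replicate block, and 1 to 4 with single libraries left out (1 without L-gp130 replicate 3). The members whose effect differed between cell types numbered 1 (without L-gp130 CD8 replicate 1) to 4 (without L-gp130 CD4 replicate 1) with single libraries left out. The count of shares called was 0 with shares of reads, and 0 to 1 with single libraries left out. After a CD4 library is lost, a CD4 share that alone reaches the smallest possible p has an adjusted p of 0.0779. Of the pathway genes, 2 to 6 were called in CD4 cells with single libraries left out, 5 each with DESeq2, with no sex covariate and without both doubted libraries (L-gp130 replicate 1 and CD4Cre replicate 5), and 7 in libraries labelled female. In CD8 cells 1 to 2 were called with single libraries left out, 4 with DESeq2, 2 with CD4Cre replicates 1 to 3 alone and 3 with CD4Cre replicates 4 to 6 alone. Apart from the shares with a CD4 library left out, for which fewer samples raise the smallest possible p, the cause was not tested.

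Mouse numbers did not pair the genotypes: same-numbered CD4 libraries had correlations of their deviations from -0.19 to 0.14, and CD8 libraries from -0.06 to 0.17. With the replicate block Sh2d2a in CD4 cells was at 0.33 (edgeR adjusted p = 0.0507), and in CD8 cells Slamf7 was at 0.47 (0.0944) and Ly9 at -0.18 (0.104). The block also ended the calls of Fyn (0.0627) and Il4 (0.0974) in CD4 cells. For the difference between cell types it ended that of Fyn (0.39, adjusted p = 0.0556). Leaving aside the differences of Cxcr5 and Icos between cell types, it changed no other call that the report gives. Only 3 L-gp130 CD8 mice limit that comparison, and Cd244a, Slamf1 in CD8 cells and Il21 in CD8 cells rest on few counts.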
